A study of Saccharomyces cerevisiae with 593 samples.

Results

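ADR1, REG2, SUC2, GAC1 and ISF1 of Saccharomyces cerevisiae were followed across the treatments, times and strains of a splicing microarray study. They were chosen by name, as the spots whose gene symbol in the platform's probe table was one of these 5. Each gene was measured by 1 oligo printed in 6 copies, so 5 oligos and 30 spots were used, out of 1457 named oligos and 8742 named spots for 982 genes. All values are log2 ratios of 2 RNA samples hybridised to one array in the dyes Cy5 and Cy3, so a value of 1 is a doubling over the control, and no absolute level was measured.

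The study set stressed or starved yeast against a control culture on 593 two-colour arrays. One replicate value is the mean of the arrays that share an array identifier, usually the same comparison with the dyes in both orientations, and 282 of the 311 identifiers had both. The first part of the identifier was used as a batch, lettered here from A to I. What a batch stands for (a print run, a day) was not stated, and the labels do not say whether replicate values came from separate cultures, so each p-value measures the spread between these samples only.

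The wild-type groups with 2 or more replicate values were compared, at up to 4 times between 5 and 40 min, with an untreated wild-type culture of the same time for glucose depletion, heat shock at 42 °C, 300 mM LiCl, 0.5 M NaCl, 1 M KCl, 5 ug/mL sulfometuron methyl (SMM, an inhibitor of branched-chain amino acid synthesis), amino acid and inositol depletion, nitrogen depletion (5 and 10 min), nitrogen depletion with 50 mM 3-AT (an inhibitor of histidine synthesis), KCl with 20 uM TBB (an inhibitor of casein kinase 2) and 3-AT with KCl. Rapamycin at 200 ng/mL (an inhibitor of the TOR kinase), wortmannin at 1 mg/mL (an inhibitor of phosphatidylinositol kinases, tested at 10, 20 and 40 min), 3-AT alone and 3-AT with TBB were compared with a pretreatment sample, and 3-AT with TBB also with 3-AT alone (tested at 5, 10 and 20 min). The hog1 deletion strain in KCl and the his3 deletion and HIS3-repaired strains in histidine depletion were each compared with the untreated culture of the same strain. Groups with 1 replicate value, among them 1 M sorbitol, 1 and 10 mM DTT, phosphate depletion, TBB alone, rapamycin with TBB, 3-AT with rapamycin and all arrays with the rrp6, edc2, ckb1, ckb2, ckb1 ckb2, cka1 and cka2 deletion strains, have no replicate check and are given as values. In the 13 groups that set the rrp6 strain over the wild type, the RRP6 oligo was between -3.40 and -0.85.

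In budding yeast, glucose keeps genes for other carbon sources off. When glucose runs out, the protein kinase Snf1 becomes active, and the protein phosphatase Glc7 with its subunit Reg1 opposes it. Cells short of nutrients also store glycogen, and a separate Glc7 subunit directs the phosphatase to that task. ADR1 encodes a transcription factor needed for genes of ethanol and fatty acid use, REG2 a Glc7 subunit related to Reg1, GAC1 the Glc7 subunit that promotes glycogen storage, SUC2 the invertase that splits sucrose, and ISF1 a serine-rich protein that resembles Mbr1.

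Across the series, between 0.0326% and 64.07% of spots were missing per array (median 4.64%), and 26 arrays lacked over 20%. The 6 copies of an oligo differed by a median SD of 0.138 over all oligos, against 0.162 for ADR1, 0.136 for REG2, 0.218 for SUC2, 0.21 for GAC1 and 0.372 for ISF1. A mean was tested with limma over the 76 groups with replicates, and a call is a Benjamini-Hochberg adjusted p under 0.05 over the 1457 oligos of that comparison. The 5 oligos were called in 79 of 380 tests, 64 upward and 15 downward, which is 20.8% against 16.3% of the tests of all oligos. Of the 76 groups, GAC1 rose in 23 and fell in 4, ADR1 rose in 17 and fell in 9, ISF1 rose in 11, SUC2 rose in 7 and fell in 1, and REG2 rose in 6 and fell in 1. For REG2, whose values depended on the dyes as given below, the counts were 3 up and 4 down with the average dye effect subtracted, and 5 up and 11 down in the 64 groups left without single-orientation identifiers. In cultures, a change in every cell and a change in some of the cells cannot be told apart.

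The genes differed in how much their group means moved. The SD over the means of 195 groups was 0.90 for GAC1, higher than for 99.1% of oligos or equal to them, and 0.56 for ADR1, at the 95.1 percentile. ISF1 had an SD of 0.37 (79.3 percentile), REG2 0.27 (53.4 percentile) and SUC2 0.17 (7.89 percentile).

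**Figure D1:**
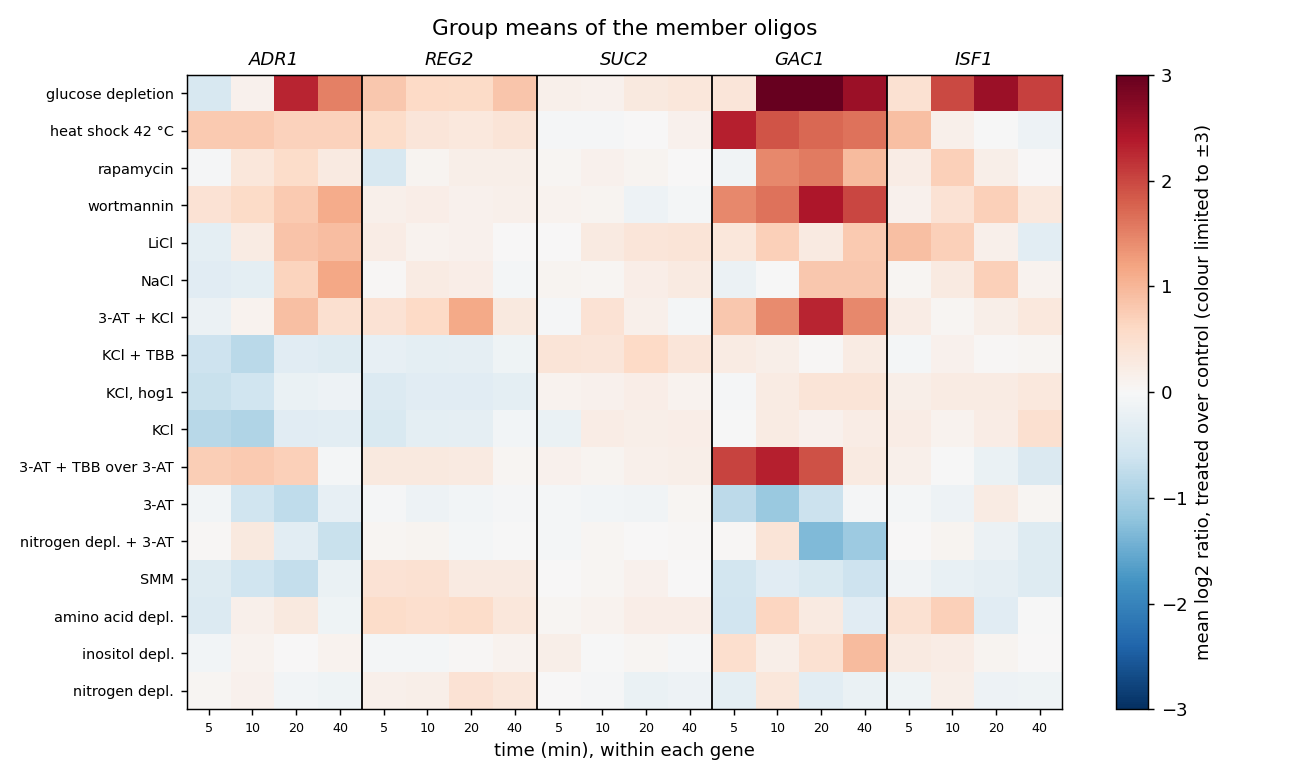
Mean log2 ratio of treated over control for each gene (blocks from left to right) at 5, 10, 20 and 40 min in 17 treatments (down the page), with colour limited to a log2 ratio of 3 in either direction. GAC1 in glucose depletion at 10 and 20 min is the darkest red, ISF1 from 10 min and ADR1 from 20 min are red there too, and GAC1 is also red in heat shock, wortmannin, 3-AT with KCl, and 3-AT with TBB over 3-AT.

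One property of the REG2 oligo bears on all its values. Its ratio was higher when the treated RNA carried Cy5 than when it carried Cy3 in 271 of 282 identifiers. The dye effect, which is 0.5 times that difference and cancels in the mean of both orientations, averaged 0.45 ± 0.35 (SD over identifiers), which puts REG2 at the 99.1 percentile of oligos. The same quantity was 0.08 ± 0.21 for ADR1 (280 identifiers), -0.17 ± 0.19 for SUC2 (279), -0.10 ± 0.21 for GAC1 (276) and -0.04 ± 0.16 for ISF1 (282). All 28 identifiers of batch B were run in 1 orientation, with the treated RNA in Cy5. REG2 was above 0 in all 28 of them, between 0.37 and 1.93 with a median of 0.73. REG2 means that include batch B are given below with the average dye effect subtracted and, where enough values remained for a test, with the single-orientation identifiers left out. Leaving them out was added after the data were seen. The subtraction left the batch B values of REG2 between -0.07 and 1.49, mostly above 0. Whether an offset of batch B remains in the corrected means was not tested.

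**Figure D2:**
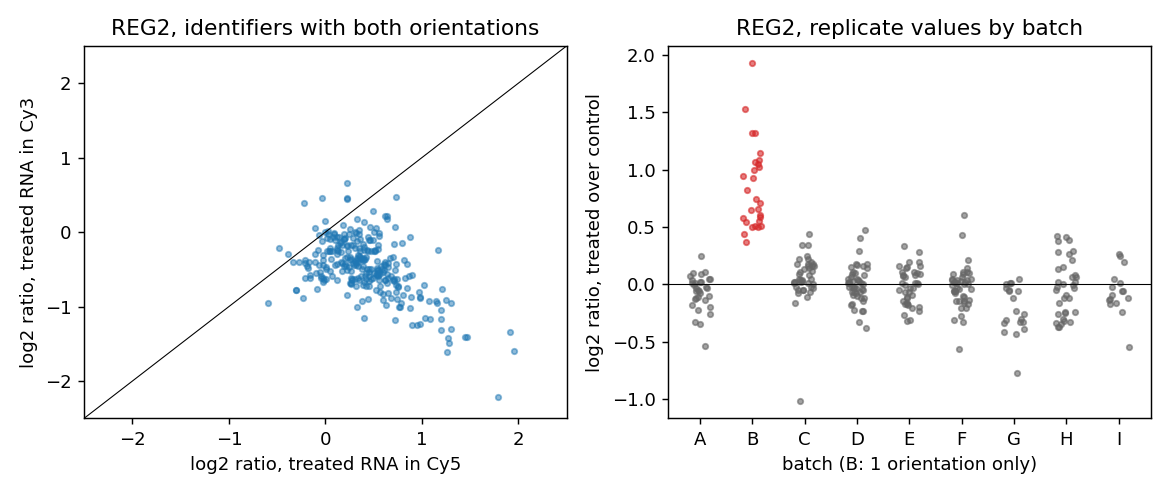
Left, the log2 ratio of REG2 with treated RNA in Cy5 (horizontal) against the ratio with treated RNA in Cy3 (vertical), 1 point per identifier with both orientations, and the line of equality. Right, each replicate value of REG2 by batch, in which the batch B points, all from 1 orientation, lie between 0.37 and 1.93.

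Glucose depletion gave the highest values of 3 of the genes. GAC1 rose about 14.1-fold by 10 min, and ADR1 and ISF1 rose 4.87-fold and 5.87-fold by 20 min. In all, 12 of the 20 tests of the 5 oligos over 4 times were called, all upward, against 18.5% of the tests of all oligos called upward. The median of the 5 oligos was 0.36, 0.59, 2.28 and 1.50 at 5, 10, 20 and 40 min, and the median of all oligos was 0.02 to 0.03. Glucose depletion was run once in batch B, in 1 orientation, and once in batch F, in both.

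ADR1, the transcription factor, started low. At 5 min it was -0.52 in batch B and -0.42 in batch F, and at 10 min 0.00 and 0.28, with no call at either time. At 20 min it stood at 1.86 and 2.71, a mean of 2.28 ± 0.60 (SD, n = 2; limma adjusted p = 5.87e-16). Both values were still above 0 at 40 min, at 1.01 and 2.00, a mean of 1.50 ± 0.70 (n = 2; limma adjusted p = 2.81e-08). The 40 min value exceeded the 5 min value by 1.97 (limma adjusted p = 1.44e-06), in a comparison in which 12.4% of all oligos were called.

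GAC1, the glycogen-targeting subunit, rose earlier than ADR1 in the sampled times. It was 0.30 in batch B and 0.42 in batch F at 5 min, which was not called. At 10 min only batch F gave a value, 3.82 (3.40 with the treated RNA in Cy5 and 4.23 in Cy3; limma adjusted p = 1.85e-11, with the spread taken from the other groups). At 20 min both batches were high, at 3.38 and 4.19, with a mean of 3.79 ± 0.57 (n = 2; limma adjusted p = 4.34e-19), or 13.8-fold. At 40 min batch F alone stood at 2.56 (2.50 in Cy5 and 2.62 in Cy3; limma adjusted p = 2.38e-06). The difference between 40 and 5 min was 2.20 (limma adjusted p = 0.00377).

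ISF1 rose by 10 min, with high values in both batches. At 5 min it was 0.67 in batch B and 0.26 in batch F, which was not called. It was 1.65 and 2.33 at 10 min (mean 1.99 ± 0.48; limma adjusted p = 3.56e-14), 2.14 and 2.97 at 20 min (mean 2.55 ± 0.58; limma adjusted p = 7.23e-21), and 1.37 and 2.75 at 40 min (mean 2.06 ± 0.98; limma adjusted p = 3.96e-15). From 10 min on, every value of ISF1 lay above both of its 5 min values, and the 40 min mean exceeded the 5 min mean by 1.59 (limma adjusted p = 2.74e-05). From 10 min on, batch F lay above batch B for ISF1 at each time, as it did for ADR1.

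REG2, the Reg1-related subunit, gave calls that depended on the dyes. It was 1.53, 1.08, 0.74 and 1.05 in batch B at 5, 10, 20 and 40 min, and 0.11, 0.11, 0.43 and 0.60 in batch F. All 4 means were called, at 0.82, 0.59, 0.59 and 0.82. With the average dye effect subtracted from batch B, the means were 0.60, 0.37, 0.37 and 0.60. Those at 5 and 40 min were called (limma adjusted p = 0.00199 and 0.00147) and those at 10 and 20 min were not (limma adjusted p = 0.0657 and 0.0630). At 5 min the corrected batch B value was 1.09, against 0.11 in batch F. With batch B left out, the called times were 20 and 40 min (limma adjusted p = 0.0200 and 0.000912), at 0.43 and 0.60. The 40 min call is the one present in all 3 settings, and in batch F at 40 min REG2 was 0.73 with the treated RNA in Cy5 and 0.47 in Cy3.

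SUC2, the invertase gene, had values in batch F only, since batch B gave too few spots at all 4 times. They were 0.15, 0.13, 0.29 and 0.33 at 5, 10, 20 and 40 min. All were above 0 and none was called (limma adjusted p = 0.224 at 20 min).

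**Figure D3:**
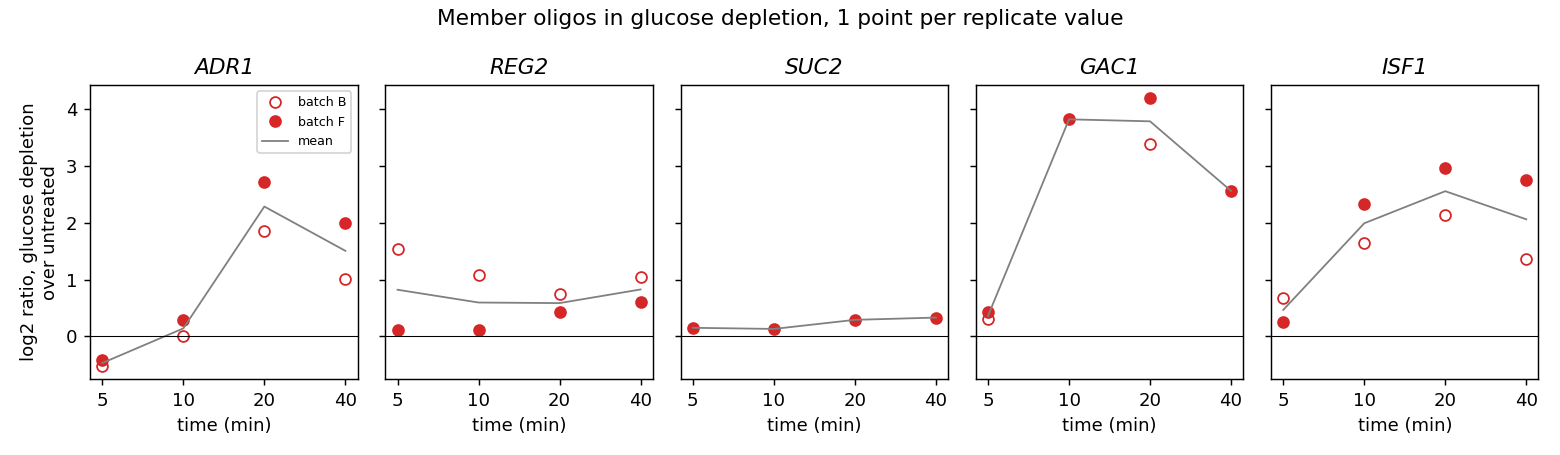
Log2 ratio of glucose depletion over untreated (vertical) against time in min (horizontal, log-spaced) for each gene, with open circles for batch B, filled circles for batch F and a line through the mean. ADR1, GAC1 and ISF1 reach 1.86 to 4.19 at 20 min in both batches, the batch B points of REG2 lie above its batch F points at each time, and SUC2 has batch F points only.

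The count of 12 was 8 without batch B and 10 without batch F, where 14 tests remained, and ADR1, GAC1 and ISF1 at 20 min were called in both cases. A fit of each glucose depletion group on its own, with 14 tests, left 4 calls. There the limma adjusted p of ADR1 and of ISF1 at 20 min was 0.0847.

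These 3 genes were higher in glucose depletion than in each of 7 other treatments at 20 min. The difference was called in 21 of 21 comparisons of ADR1, GAC1 and ISF1. Of all oligos, 8.17% were called against rapamycin, 16.5% against LiCl, 6.73% against NaCl, 40.7% against KCl, 8.72% against heat shock, 8.44% against amino acid depletion and 15.1% against inositol depletion. ADR1 was higher by 1.43 than in LiCl (limma adjusted p = 6.06e-05), by 1.61 than in NaCl (9.37e-05) or heat shock (8.32e-05), by 1.74 than in rapamycin (2.07e-06), by 2.00 than in amino acid depletion (4.51e-07), by 2.28 than in inositol depletion and by 2.63 than in KCl (4.10e-14). GAC1 exceeded heat shock by 2.05 (limma adjusted p = 0.000650), rapamycin by 2.23 (4.34e-05), NaCl by 2.97 (4.60e-07) and the other 4 by 3.33 to 3.65. ISF1 exceeded NaCl by 1.83 (limma adjusted p = 9.71e-07) and the other 6 by 2.33 to 2.90.

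Where a batch held both treatments, the differences of ADR1, GAC1 and ISF1 kept their direction. Those of REG2 had both signs at 20 min, with 0.34 against LiCl and 0.41 against inositol depletion in batch F. In batch B they were 0.24 against heat shock, -0.26 against amino acid depletion and -1.19 against 3-AT with KCl. For SUC2, which lacked batch B values, they were 0.08 against LiCl and 0.26 against inositol depletion. Within batch F, glucose depletion minus LiCl was 1.08 for ADR1, 3.88 for GAC1 and 2.65 for ISF1, and glucose depletion minus inositol depletion was 3.03, 3.88 and 3.01 for the same genes. Within batch B, glucose depletion minus heat shock was 1.33, 2.55 and 2.15, and minus amino acid depletion 1.79, 3.56 and 2.50. Against 3-AT with KCl, which was not among the tested differences, the batch B gaps were 0.77, 0.83 and 2.01. Wortmannin was not among them either, and its GAC1 mean at 20 min was 2.42. Rapamycin, NaCl and KCl shared no batch with glucose depletion at 20 min, so for them batch and treatment cannot be told apart outside the fit with a batch term, in which the calls held.

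Other genes of the pathway were measured only in part, because the arrays were designed around splicing. Of 27 glucose signalling genes in the list used, 9 were on the arrays with 12 oligos, of which 1, 2, 3 and 2 rose at 5, 10, 20 and 40 min of glucose depletion and none fell. These 8 of 48 tests, or 16.7%, stand near the 18.5% of the tests of all oligos called upward. Their medians were 0.09, 0.15, 0.20 and 0.11, against 0.02 to 0.03 for all oligos. SIP2, a subunit of the Snf1 kinase, rose by 0.87, 1.20 and 0.70 at 10, 20 and 40 min (limma adjusted p = 5.60e-07, 1.95e-11 and 3.78e-05). STD1, a regulator of hexose transporter genes and of Snf1, rose by 1.02 at 10 min.

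Of 19 Glc7 and Glc7 subunit genes, 6 were measured with 9 oligos, and 3, 3, 3 and 2 of these rose at 5, 10, 20 and 40 min, 30.6% of 36 tests against 18.5% for all oligos. Their medians were 0.13, 0.10, 0.18 and 0.23. SDS22, a regulatory subunit, rose by 0.83, 0.94 and 0.94 at the times it was called. PIG1, which is related to GAC1, rose by 0.49 at 5 min and 0.88 at 10 min, where GAC1 stood at 0.36 and 3.82. PHO85, a kinase that acts on glycogen synthase, was the 1 measured gene of 21 in the glycogen and trehalose list. Of its 3 oligos, 2, 1, 0 and 1 rose, or 4 of 12 tests. GAL1 and GAL4 were the measured genes of 32 in the list of glucose-repressed enzymes and carriers, in which GAL4 encodes a transcription factor. They gave 2 calls in 8 tests, both of GAL4, at 20 and at 40 min, at 0.68 and 0.74, so no enzyme or carrier gene was called. Among 5 general stress oligos, 1, 3, 3 and 5 rose, or 12 of 20 tests, against 18.5% of the tests of all oligos. The genes followed here also had 12 of 20, so their share of calls was no higher than that of general stress genes. In heat shock, LiCl, NaCl, rapamycin and KCl, 19, 18, 14, 8 and 3 of 20 general stress tests rose. The genes followed here had 9, 8, 3, 5 and 2 of 20 there. HSP104, a disaggregating chaperone, was 1.55, 2.72, 2.64 and 1.75 in glucose depletion. Of 2 glycolysis oligos, 0, 1, 2 and 1 rose in glucose depletion, or 4 of 8 tests. TDH1, a glyceraldehyde-phosphate dehydrogenase, was 1.35, 2.53 and 2.16 at 10, 20 and 40 min.

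Heat shock at 42 °C raised GAC1 and ADR1 at every time, 3.71-fold and 1.74-fold at 10 min. In all, 9 of 20 tests were called upward, against 9.93% of the tests of all oligos. GAC1 was 2.65, 2.68 and 2.63 in batch A at 5, 10 and 20 min, and at 40 min 1.38 with the treated RNA in Cy5 and 3.22 in Cy3. It was 2.02, 1.11, 0.83 and 0.95 in batch B at 5, 10, 20 and 40 min. All 8 replicate values were above 0, and from 10 min on those of batch A were more than 1 above those of batch B. In Cy5, the only orientation of batch B, batch A gave 1.76, 1.72 and 1.38 at 10, 20 and 40 min, closer to batch B. In Cy3 it gave 3.60, 3.55 and 3.22. The means were 2.33, 1.89, 1.73 and 1.63 (limma adjusted p = 6.27e-09, 1.13e-06, 3.66e-06 and 1.24e-05). Another course, in batch F, set over the culture at 0 min and not part of the test, gave 2.70, 1.61, 1.15 and 1.25.

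ADR1 was more even between the heat shock courses. It was 0.77, 0.98, 0.83 and 0.89 in batch A, 0.82, 0.61, 0.53 and 0.47 in batch B, and 0.78, 0.96, 0.61 and 0.59 in batch F. Its means over batches A and B were 0.80, 0.80, 0.68 and 0.68 (limma adjusted p = 0.00430 at 5 min and 0.00967 at 40 min). ISF1 was called at 5 min and at no other time. Its 5 min values were 0.88 and 0.91 (mean 0.89; limma adjusted p = 0.000355), with 0.74 in batch F. By 40 min ISF1 was -0.20, -0.10 and -0.23 in batches A, B and F, and the 40 min mean was 1.04 below the 5 min mean (limma adjusted p = 0.00594, in a comparison in which 10.7% of all oligos were called). Without batch A, 3 of the 20 tests were called, and the 20 min values of GAC1 (0.83) and ADR1 (0.53) were not (limma adjusted p = 0.218 and 0.329). Without batch B, 8 were called. With each group fitted alone, 6 were called, and neither GAC1 nor ADR1 was at 20 min (limma adjusted p = 0.128 and 0.0872).

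Rapamycin and wortmannin, each compared with a pretreatment sample, raised GAC1. In rapamycin, 5 of 20 tests were called upward, against 11.2% of the tests of all oligos. At 5 min GAC1 was -0.35 and 0.13. It was 1.09 and 1.81 at 10 min (mean 1.45; limma adjusted p = 0.000258), 1.70, 1.71 and 1.25 at 20 min (mean 1.55; limma adjusted p = 6.37e-07), and 0.85 and 1.07 at 40 min (mean 0.96; limma adjusted p = 0.0134). Every value from 10 min on was above both values at 5 min. ADR1 at 20 min was 0.30, 0.52 and 0.80 (mean 0.54; limma adjusted p = 0.0108), and 0.41 without the batch I value (limma adjusted p = 0.156). ISF1 at 10 min was 0.20 and 1.21 (mean 0.71; limma adjusted p = 0.00659). Without replicate 3, of batch C, 3 tests were called. Between 40 and 5 min limma called no difference for the 5 oligos, where 26.4% of all oligos were called and 2 of the 5 had an unadjusted p under 0.05.

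These rapamycin values leave out 1 course of batch C whose labels give the dyes the other way round. As labelled, GAC1 in it was -1.41, -2.41, -1.85 and -1.44 and ADR1 -0.52, -0.83, -0.81 and -0.72 at 5, 10, 20 and 40 min. Over all oligos, this course correlated with the other rapamycin replicates at between -0.889 and -0.0120, so its direction was not settled. Included as labelled, it left 0 of 20 tests called by limma and 1 at an unadjusted p under 0.05, with GAC1 at 0.70 at 20 min (limma adjusted p = 0.244). Included with the sign turned, it left 6 called, with GAC1 at 1.63 at 20 min.

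In wortmannin, 6 of 15 tests were called upward, against 7.44% of the tests of all oligos. GAC1 was 1.43 and 1.82 at 10 min, 3.08 and 1.76 at 20 min, and 2.21 and 1.79 at 40 min, with means of 1.62, 2.42 and 2.00 (limma adjusted p = 0.000633, 5.90e-09 and 6.88e-08). All 6 values exceeded 1. With the unsettled wortmannin array at 5 min and the other unsettled identifiers in the fit as labelled, the 10 min value was not called (limma adjusted p = 0.210). ADR1 rose at 20 min (0.78 and 0.79; limma adjusted p = 0.00472) and at 40 min (1.64 and 0.58; limma adjusted p = 1.23e-05), and ISF1 at 20 min (0.93 and 0.50; limma adjusted p = 0.00559).

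**Figure D4:**
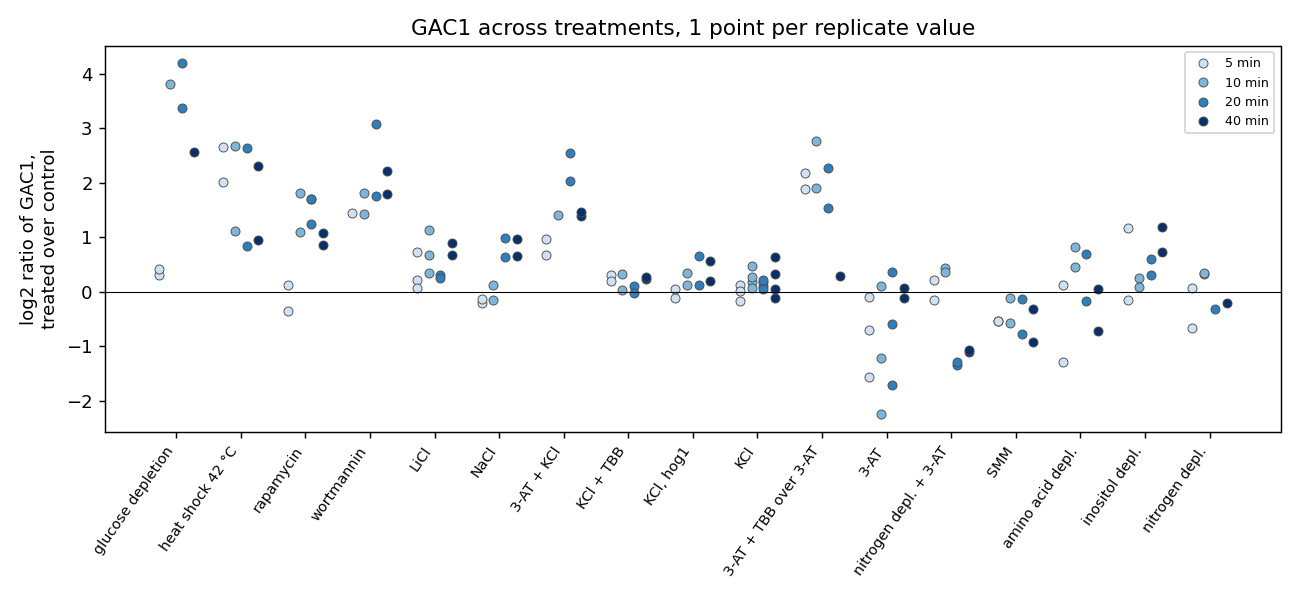
Log2 ratio of GAC1, treated over control (vertical), in 17 treatments (horizontal), 1 point per replicate value, with darker blue for later times. The points of glucose depletion reach 4.19, those of heat shock, wortmannin, 3-AT with KCl, and 3-AT with TBB over 3-AT are mostly between 0.67 and 3.08, and those of 3-AT alone reach -2.25.

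The salts did not act alike on ADR1. It rose late in LiCl and NaCl and fell early in KCl. In LiCl, 8 of 20 tests were called upward, against 16.3% of the tests of all oligos. ADR1 at 5 min was 0.16 in batch F and -0.28 and -0.77 in batch H. At 20 min it was 1.63 in batch F and 1.26 and -0.33 in batch H (mean 0.85 ± 1.04, n = 3; limma adjusted p = 3.30e-05), so 1 of 3 values was on the other side of 0. Without batch F the 20 min mean was 0.47 and was not called (limma adjusted p = 0.0895), and the count of 8 became 5. With the group fitted alone, ADR1 and SUC2 at 20 min were not called (limma adjusted p = 0.189 and 0.0608). At 40 min only 2 replicates gave a value of ADR1, 1.10 and 0.74 (mean 0.92; limma adjusted p = 0.000300). The 40 min mean of these 2 exceeded the 5 min mean of 3 values by 1.21 (limma adjusted p = 0.000690, in a comparison in which 18.9% of all oligos were called). In a single comparison of LiCl at 20 min with a pretreatment sample, ADR1 was 1.54.

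ISF1 was high early in LiCl. It was 0.95, 0.76 and 1.01 at 5 min (mean 0.90; limma adjusted p = 4.71e-06) and 0.50, 0.78 and 0.89 at 10 min (mean 0.72; limma adjusted p = 0.000155). By 40 min the values were 0.01, 0.20 and -1.14, all below those at 5 min, a difference of -1.21 (limma adjusted p = 3.15e-05). SUC2 rose by little in LiCl, with 0.21, 0.33 and 0.57 at 20 min (mean 0.37; limma adjusted p = 0.00322) and 0.25, 0.43 and 0.48 at 40 min (mean 0.39; limma adjusted p = 0.00209). Without its highest value the 20 min mean was 0.27 and was not called (limma adjusted p = 0.123). GAC1 was 0.34, 0.68 and 1.13 at 10 min (mean 0.72; limma adjusted p = 0.0229) and 0.67 and 0.90 at 40 min (mean 0.78; limma adjusted p = 0.0406). The batch H replicate that was highest at 10 min gave no GAC1 value at 40 min.

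In NaCl, 3 of 20 tests were called upward, against 6.30% of the tests of all oligos. ADR1 was -0.29 and -0.38 at 5 min, 1.04 and 0.31 at 20 min (mean 0.68; limma adjusted p = 0.0163), and 1.44 and 0.86 at 40 min (mean 1.15; limma adjusted p = 5.02e-05), from batches D and H. Both values at 20 and at 40 min lay above both at 5 min, and the difference between 40 and 5 min was 1.48 (limma adjusted p = 0.00113, with 2.95% of all oligos called). ISF1 was 0.80 and 0.64 at 20 min (mean 0.72; limma adjusted p = 0.00458). Without batch D, limma called 0 of 20 tests, 3 had an unadjusted p under 0.05, and the 20 min values were 0.31 for ADR1 and 0.64 for ISF1 (limma adjusted p = 0.797 and 0.211). Without batch H, 2 were called.

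In KCl, 2 of 20 tests were called upward and 3 downward, against 19.5% and 17.1% of the tests of all oligos. ADR1 was -0.75, -0.56 and -1.21 at 5 min (mean -0.84; limma adjusted p = 7.81e-05) and -0.79, -0.74, -1.40 and -0.66 at 10 min (mean -0.90; limma adjusted p = 8.51e-07). All 7 values were at or below -0.56. At 20 and 40 min the means were -0.35 and -0.32 and were not called. REG2 fell at 5 min, with -0.18, -0.39 and -0.77 (mean -0.45; limma adjusted p = 0.0496). Its values at 10 and 20 min were all below 0, with means of -0.30 and -0.27 that were not called. No KCl value came from batch B. With the single-orientation identifiers of other treatments left out of the fit, a setting added after the data were seen, these 3 means of REG2 were called (limma adjusted p = 8.04e-06, 0.000383 and 0.00142). SUC2 rose by 0.23 at 10 min (limma adjusted p = 0.0366) and ISF1 by 0.49 at 40 min (limma adjusted p = 0.00420). Between 40 and 5 min limma called no difference for the 5 oligos, against 5.90% of all oligos, and 2 of the 5 had an unadjusted p under 0.05. The count of 5 calls was 2 without replicate 4, of batches F and H, and 3 without replicate 2, of batch G.

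The difference between salts was tested at 20 min. ADR1 was higher in LiCl than in KCl by 1.20 (limma adjusted p = 1.80e-05, with 37.5% of all oligos called) and by 0.67 within batch H. The batch H mean of LiCl, 0.47, came from values on both sides of the KCl value of -0.20. ADR1 was higher in NaCl than in KCl by 1.03 (limma adjusted p = 0.00323, with 19.4% of all oligos called) and by 0.52 within batch H. The salts differed in concentration, at 300 mM, 0.5 M and 1 M.

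The kinase Hog1 carries the cell's response to high osmolarity. In cells deleted for it, ADR1 in KCl was -0.92 and -0.42 at 5 min (mean -0.67; limma adjusted p = 0.0311), which was 1 of 20 tests called downward, against 6.69% of the tests of all oligos. At 10 min it was -0.69 and -0.52. The wild-type values above overlap with these. Of 20 differences between hog1 and wild type over the 5 oligos and 4 times, limma called 0, 0 had an unadjusted p under 0.05, and limma with a robust prior also called 0. Of all oligos, 0.00% were called at 5, 10 and 20 min and 0.755% at 40 min. For ADR1 the difference was 0.17 at 5 min (95% interval -0.39 to 0.73) and 0.29 at 10 min (-0.24 to 0.82). Differences within these bounds remain possible. Within batches A and G, hog1 minus wild type for ADR1 was -0.17 and 0.47 at 5 min, 0.09 and 0.54 at 10 min, 0.10 and 0.20 at 20 min, and 0.12 and 0.08 at 40 min.

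**Figure D5:**
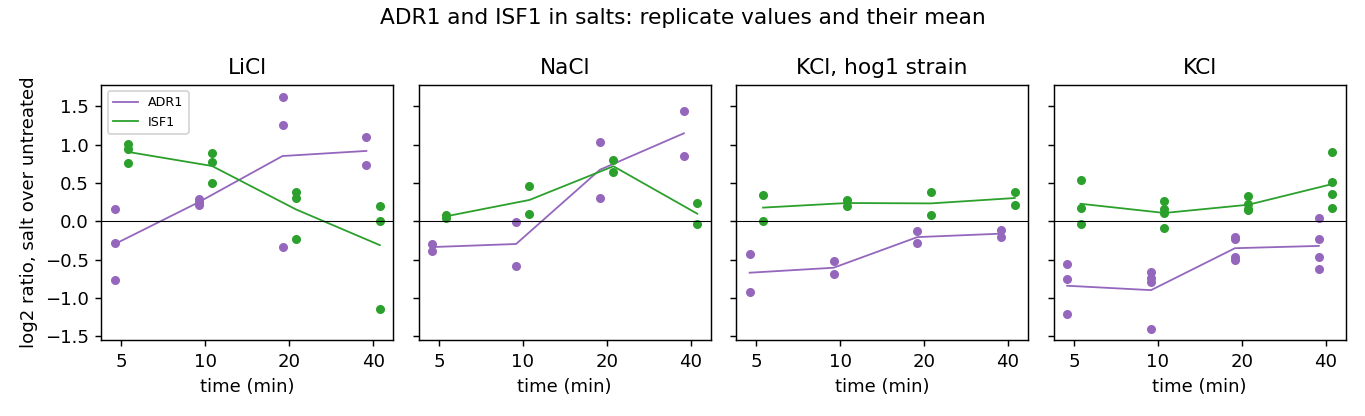
Log2 ratio of ADR1 (purple) and ISF1 (green), salt over untreated (vertical), against time in min (horizontal, log-spaced) in LiCl, in NaCl, in KCl in the hog1 strain and in KCl in the wild type, with points for replicate values and lines for their mean. ADR1 is above 0 by 40 min in LiCl and NaCl and at or below -0.42 at 5 and 10 min in KCl in both strains, and ISF1 in LiCl has its highest values at 5 min.

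With TBB added to KCl, ADR1 fell at 5 min (-0.74 and -0.49; limma adjusted p = 0.0267) and 10 min (-0.89 and -0.71; limma adjusted p = 0.00307), 2 of 20 tests against 11.8% of all oligos' tests called downward. SUC2 rose at all 4 times, with 0.28 and 0.48, 0.19 and 0.52, 0.41 and 0.78, and 0.29 and 0.45 at 5, 10, 20 and 40 min, 4 of 20 tests against 12.3% called upward. Its mean at 20 min was 0.59 (limma adjusted p = 0.000284), or 1.51-fold, the highest called mean of SUC2. The test of KCl with TBB minus KCl at 20 min set 2 group means over untreated against each other. It called 0 of the 5 oligos with limma, where 1 had an unadjusted p under 0.05, and 0.00% of all oligos. Arrays of KCl with TBB directly over KCl gave 1 replicate value per time, in batch E, and no test. In them SUC2 was -0.17, 0.11, -0.11 and -0.39 at 5, 10, 20 and 40 min.

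3-AT alone lowered GAC1 and ADR1. Of 20 tests, 4 were called downward, against 3.93% of the tests of all oligos. GAC1 was -0.10, -0.70 and -1.57 in batches D, E and F at 5 min (mean -0.79; limma adjusted p = 0.0389) and 0.10, -1.22 and -2.25 at 10 min (mean -1.13; limma adjusted p = 0.00104). Batch F was the lowest and batch D the highest at both times, with batch D near 0. ADR1 was -0.56, -0.61 and -0.60 at 10 min (mean -0.59; limma adjusted p = 0.0182) and -0.23, -0.99 and -1.07 at 20 min (mean -0.76; limma adjusted p = 0.000833).

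3-AT with TBB over 3-AT alone gave the other direction, with 6 of 15 tests called upward against 7.02% of the tests of all oligos. GAC1 was 1.88 and 2.17, 1.90 and 2.76, and 1.54 and 2.27 at 5, 10 and 20 min, with means of 2.02, 2.33 and 1.90 (limma adjusted p = 8.45e-07, 1.22e-08 and 3.28e-06). All 6 values were at or above 1.54. ADR1 rose at the same times, by 0.74, 0.79 and 0.72 (limma adjusted p = 0.0174, 0.00830 and 0.0200). At 40 min, with 1 replicate value and no test, GAC1 was 0.28. In the group labelled as 3-AT with TBB at 0 min, GAC1 was 0.96 and 1.34 over pretreatment (mean 1.15; limma adjusted p = 0.00718), which was 1 of 20 tests over pretreatment called upward, against 4.12% of the tests of all oligos. SUC2 in the same series was -0.25, -0.42 and -0.36 at 10 min (mean -0.34; limma adjusted p = 0.0444), the 1 test called downward, against 3.60% of the tests of all oligos.

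3-AT with KCl raised GAC1 at all 4 times, and 7 of 20 tests were called upward, against 15.6% of the tests of all oligos. GAC1 was 0.67 and 0.96 at 5 min, 1.41 in 1 value at 10 min, 2.55 and 2.04 at 20 min and 1.39 and 1.47 at 40 min. The 20 min mean was 2.29 (limma adjusted p = 8.26e-09), which exceeded KCl alone by 2.16 (limma adjusted p = 5.28e-06, with 33.1% of all oligos called). ADR1 at 20 min was 1.09 and 0.72 (mean 0.90; limma adjusted p = 0.000688), 1.25 above KCl alone (limma adjusted p = 9.95e-05). REG2 at 10 min was 1.32 in batch B and -0.11 in batch E, a called mean of 0.61 (limma adjusted p = 0.0288), and 0.38 with the dye effect subtracted, which was not called (limma adjusted p = 0.0510). At 20 min REG2 was 1.93 in batch B and 0.33 in batch E, a called mean of 1.13 (limma adjusted p = 4.37e-05). With the dye effect subtracted, batch B was 1.49 and the mean of 0.91 was called (limma adjusted p = 3.35e-06). With the single-orientation identifiers left out, only the batch E value remained at each time, which allowed no test.

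Nitrogen depletion with 3-AT lowered GAC1 late, with 3 of 20 tests called downward against 0.704% of the tests of all oligos. GAC1 was -1.35 and -1.29 at 20 min (mean -1.32; limma adjusted p = 0.0151) and -1.10 and -1.07 at 40 min (mean -1.09; limma adjusted p = 0.0210), and ADR1 was -0.49 and -0.85 at 40 min (mean -0.67; limma adjusted p = 0.0439). SMM lowered ADR1 at 20 min, with -0.51 and -0.90 (mean -0.70; limma adjusted p = 0.0233), 1 of 20 tests against 3.81%. In amino acid depletion ISF1 at 10 min was -0.02 in batch A and 1.44 in batch B, a called mean of 0.71 (limma adjusted p = 0.00695), 1 of 20 tests against 11.9% called upward.

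The remaining replicated depletions gave no call with limma. In inositol depletion 0 of 20 tests were called, against 0.103% of the tests of all oligos, and 1 had an unadjusted p under 0.05. In histidine depletion of the his3 and HIS3-repaired strains 0 of 40 were called, with 2 at an unadjusted p under 0.05, against 2.28% of the tests of all oligos in his3 and 0.00% in the HIS3-repaired strain. limma called 0 of 20 differences between these strains, with 0 at an unadjusted p under 0.05, where 0.00%, 0.00%, 0.480% and 1.03% of all oligos were called at 5, 10, 20 and 40 min. In nitrogen depletion without 3-AT, limma called 0 of 10 tests and 0.00% of those of all oligos, and 0 had an unadjusted p under 0.05.

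The oligos with the pattern most like each gene were found by Pearson correlation over the means of 195 groups, which share control cultures, batches and dyes, so the values are descriptions. ADR1 was most like GAC1 (r = 0.70), SAC6 (0.68) and DHH1 (0.68), and its correlation with GAC1 was 0.68 over the 191 groups other than glucose depletion. GAC1 was most like BCY1 (0.74), HSP104 (0.72) and OM14 (0.72), and ISF1 most like MRK1 (0.58), GAC1 (0.51) and SNF11 (0.50). For SUC2 the values were lower, at 0.58 for SPP2, 0.57 for LSM8 and 0.53 for RPL41A. REG2 was most like AMA1 (0.83), CEG1 (0.82) and RPL34B (0.79), whose dye effects of 0.42, 0.46 and 0.41 were close to its own 0.45. Without the single-orientation identifiers, over 187 groups, these became 0.72, 0.62 and 0.55, and the oligos most like REG2 were GFD1 (0.73), AMA1 (0.72) and RAD2 (0.62).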

How the data were processed

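Total RNA was labelled by aminoallyl-dUTP incorporation, per the labels' protocols, and hybridised with a control RNA in the second dye. The deposited values are the authors' log2 ratios of channel 1 over channel 2 per spot. Base 2 was assumed, their normalization is not given in the sources used here, and the files hold no intensities, so signal over background is unknown and precision rests on how many arrays a group has.

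The 6 copies of an oligo were averaged where at least 2 had a value, ratios were turned to treated over control from the labelled dyes, and arrays of one identifier were averaged. In 11 identifiers the treated RNA is in channel 2. Of these, 7 of batch C had negative correlations with their replicates as labelled and were left out, with both signs as alternatives. For rapamycin at 10 to 40 min r was between -0.889 and -0.351. It was weak for rapamycin at 5 min (-0.0120 and -0.173), wortmannin at 5 min (-0.138) and nitrogen depletion at 20 and 40 min (-0.203 and -0.140). The 4 of batch E were kept (r of 0.784, 0.612 and 0.773 with replicates for 3 of them).

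The 185 replicate values of 76 groups were fitted together with limma 3.58.1 (R 4.3.3; 109 residual and 7.14 prior degrees of freedom), two-sided, with 25 contrasts. P-values were adjusted by Benjamini-Hochberg over 1457 oligos per comparison, with a threshold of 0.05. The fit was tested on simulated data. Alternatives covered copies, centring, dyes, signs, batch, prior, missing spots, adjustment and left-out replicates. Means with fewer than 2 replicate values for an oligo use the spread of the other groups.

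The text names the 5 genes, every gene on the arrays from fixed lists (glucose signalling, Glc7 subunits, glycogen and trehalose, glucose-repressed enzymes, general stress, glycolysis) as far as values illustrate the counts, and the 3 nearest oligos per gene. Members and lists were chosen with earlier results of these data known.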

Additional observations from a re-analysis of the deposited data

Results flagged for a closer look

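The 5 genes in the 11 groups of 4 replicate values gave 55 sets that were tested for a value far from the rest, and 1 set, of ISF1, held one. In histidine depletion of the HIS3-repaired strain at 40 min, replicate 1 of batch C was 0.31, and the other values were between -0.10 and -0.08. Chance gives such a value in about 1 in 20 sets.

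The effect of a treatment differed between 40 and 5 min in 7 cases by a direct limma contrast. In glucose depletion the 40 min value minus the 5 min value was 1.97 for ADR1, 2.20 for GAC1 and 1.59 for ISF1. In LiCl it was 1.21 for ADR1 and -1.21 for ISF1. In NaCl it was 1.48 for ADR1, and in heat shock -1.04 for ISF1. In rapamycin and in KCl limma called 0 of 5 such differences each, with 2 at an unadjusted p under 0.05 in each.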

How the results depend on the processing

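The number of calls among 20 member tests per treatment, and the 20 min mean of each gene, were recomputed under the alternatives. With each group fitted alone the counts were 4 for glucose depletion (12 as reported), 3 for rapamycin (5), 5 for NaCl (3), 10 for KCl (5), 6 for heat shock (9) and 8 for LiCl (8). With the unsettled identifiers as labelled, rapamycin had 0 calls (limma, 1 at an unadjusted p under 0.05). With single-orientation identifiers left out, an alternative chosen after seeing the data, NaCl had 5 and KCl 8. With p-values adjusted over all comparisons, KCl had 3. Leaving out 1 replicate at a time gave 8 to 10 calls for glucose depletion, 3 to 4 for rapamycin, 5 to 7 for LiCl, 0 to 2 for NaCl, 2 to 5 for KCl and 3 to 8 for heat shock. Signs turned only for means that were not called. These were ISF1 in rapamycin without replicate 3 (-0.11), ISF1 in LiCl with the median of the copies (-0.04), REG2 in NaCl without batch D (-0.01), SUC2 in heat shock without batch A (-0.09), and ISF1 in heat shock with the median of the copies (0.05), the dye effect subtracted (0.01) or batch as a random block (0.04). The cause was not tested. Of the other recomputed 20 min means, over all genes and settings, 393 stayed on their side of the threshold, 25 lost and 13 gained a call. Over all groups the 79 calls were 83 with the dye effect subtracted, 56 of 395 with unsettled identifiers as labelled and 78 as deposited, settings also added after seeing the data. The 34 calls among differences between groups were 39 with batch as a fixed term.

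Over all oligos at 20 min, glucose depletion had 516 calls, 296 without batch B and 2 with the group fitted alone. Rapamycin had 552, 40 as labelled and 247 alone. LiCl had 548 and 343 alone, NaCl 298, 482 alone, 64 without batch D, KCl 524 and 333 without replicate 2, and heat shock 431, 0 alone (limma, 499 at an unadjusted p under 0.05) and 114 without batch A. No paired analysis was possible because the labels give no replicate numbers. Batches shared between groups entered through within-batch values and a batch term instead.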

Other observations

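Groups with 1 replicate value and no test add the following values at 5, 10, 20 and 40 min unless other times are named. TBB alone over pretreatment gave -0.77, -0.57, -0.86 and -0.47 for ADR1, and 0.13, -0.01, -0.04 and 0.12 for GAC1. Rapamycin with TBB gave -0.02, 1.81, 1.23 and 0.80 for GAC1 over TBB alone, and 0.03, 0.11, 0.22 and 0.51 over rapamycin alone. 3-AT with rapamycin over pretreatment gave -1.67, -1.07, -0.41 and -0.26 for GAC1, below 0 throughout.

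ADR1 in 1 mM DTT, a reducing agent, was 0.05, 0.25, 0.53 and 0.99, and in 10 mM DTT 0.50, 0.10, 0.50 and 0.65. In 1 M sorbitol, an osmotic stress without salt, ADR1 was -0.20, -0.12, 0.07 and 0.49. In phosphate depletion all values of the 5 genes were between -0.13 and 0.29.

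In the rrp6 strain, which lacks a subunit of the nuclear exosome, KCl over its own untreated culture gave -1.14, -0.94, -1.03 and -0.94 for ADR1. GAC1 in rrp6 over wild type was between -1.64 and 0.24 in rapamycin, lowest at 10 min, and -0.33, -0.58, -0.55 and -0.93 in LiCl. In the edc2 strain, ADR1 in KCl was -0.76, -0.34, -0.35 and -0.32.

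In the ckb1 ckb2 strain, which lacks both regulatory subunits of casein kinase 2, GAC1 before treatment was 1.18 over wild type, ISF1 0.60, ADR1 0.49 and SUC2 0.43. Over wild type in the same treatment at 5, 10, 15 and 20 min, GAC1 was 0.74, 1.26, 1.59 and 0.74 in rapamycin, 0.91, 0.86, 0.53 and 0.40 in 3-AT, and 1.09, 2.14, 0.60 and -0.49 in KCl. Of these 12 values 11 were above 0, as was the value before treatment. Whether they differ from the value before treatment was not tested. Within the strain, at 5, 10, 20 and 40 min, GAC1 was -0.68, -0.94, -0.33 and -0.03 in KCl over untreated. It was -0.80, 0.17, 1.13 and 1.12 in rapamycin over untreated, and -0.40, -0.23, 1.04 and 0.54 in 3-AT over pretreatment. In the cka2 strain in SMM at 10 and 20 min, GAC1 was -1.16 and -1.68 over pretreatment. It was -0.45 and -0.60 in cka1, -0.59 and -0.84 in ckb1 and -0.01 and -0.48 in ckb2. All these came from batch B, in 1 dye orientation. In the wild type over untreated, GAC1 in SMM was -0.57 and -0.77 in batch A and -0.11 and -0.13 in batch B.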
